A study of Mus musculus with 4 samples.

Results

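The activator protein 1 (AP-1) genes and their companions among the immediate early factors formed a set of 10 genes, taken by symbol from the 16015 genes listed in the deposited table. They were the 3 Jun genes (*Jun*, *Junb* and *Jund*), the 4 Fos genes (*Fos*, *Fosb*, *Fosl1* and *Fosl2*), and *Egr1*, *Atf3* and *Ier2*, and all 10 had a mean of at least 10 normalized counts and were tested. The 10 genes were proposed with earlier results of the same comparison known, so their values are given as a description, and no test of their own is given. RNA sequencing was available for colonic epithelial cells of 2 control mice and 2 *Bmal1* cKO mice on day 7 of a colitis model. Dextran sulfate sodium (DSS), a sulfated polysaccharide that injures the colonic epithelium, was given to all 4 mice at 3% in the drinking water for 5 days, followed by 2 days of plain water. The control mice, labelled WT, carried floxed *Bmal1* alleles without Cre (*Bmal1* fl/fl), and the *Bmal1* cKO mice were *Villin-CreERT2; Bmal1* fl/fl, in which the *Villin* promoter drives a tamoxifen-dependent Cre in gut epithelial cells but not in other cells of the colon. Tamoxifen was injected on 5 consecutive days to activate Cre, and whether the control mice also received it is not given in the sources used here. The mice were on a C57BL/6 background and aged 2 to 4 months. *Bmal1*, listed under its older symbol *Arntl*, encodes a core transcription factor of the circadian clock.

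AP-1 is a dimer of basic leucine zipper (bZIP) proteins. A Jun protein can pair with itself or with a Fos protein, whereas a Fos protein needs a Jun partner, and some ATF proteins such as ATF3 and ATF2 also pair with Jun. Most of these genes are immediate early genes: growth factors, cytokines and stress switch them on within minutes through MAP kinases, serum response factor (SRF) and CREB-type factors, and their mRNAs are then degraded quickly by proteins that bind AU-rich elements. In the colon, AP-1 is known for its part in epithelial proliferation, wound repair and the inflammatory response, and the same genes are strongly induced in leukocytes and fibroblasts and by the handling of tissue during cell isolation.

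To give the letters in front of the RefSeq starts, stretches of promoter are printed for *Junb*, *Jun*, *Fos* and *Atf3*. *Junb* had the lowest fold change of the 10, and the *Jun* promoter holds a known AP-1 type site. The groups of *Fos* and of *Atf3* overlapped. The stretches are RefSeq promoters (GRCm38.p6) of 150 bases that end just before the RefSeq start, written 5′ to 3′ along the gene. Capitals mark matches to the AP-1 site, CRE, CRE half-site, Jun-type AP-1 site, CArG box and TATA box named in the next paragraph. *Junb* is at chr8:84978749-84978898, *Jun* at chr4:95052223-95052372 and *Atf3* at chr1:191183334-191183483, all on the minus strand, and *Fos* is at chr12:85473740-85473889 on the plus strand. All distances are counted from the RefSeq start, which is not always the 5′ end of the GENCODE locus printed further on. For *Atf3* the RefSeq start, 191183333, is inside the locus, whose 5′ end is 191218039. Those of *Junb* (84978748) and *Jund* (70697739) lie before the 5′ ends of their loci (84978718 and 70698949).
Junb: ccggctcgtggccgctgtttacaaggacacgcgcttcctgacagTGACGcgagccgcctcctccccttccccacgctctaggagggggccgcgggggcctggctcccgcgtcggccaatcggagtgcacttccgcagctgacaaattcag
Jun: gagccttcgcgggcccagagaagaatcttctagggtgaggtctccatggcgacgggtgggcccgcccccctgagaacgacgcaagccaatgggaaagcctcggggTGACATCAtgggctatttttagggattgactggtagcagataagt
Fos: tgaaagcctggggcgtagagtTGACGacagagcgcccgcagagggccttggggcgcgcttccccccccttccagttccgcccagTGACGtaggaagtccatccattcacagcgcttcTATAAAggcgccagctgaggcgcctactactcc
Atf3: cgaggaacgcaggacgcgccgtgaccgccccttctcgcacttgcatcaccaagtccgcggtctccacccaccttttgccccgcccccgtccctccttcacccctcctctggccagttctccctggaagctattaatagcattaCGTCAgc

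The motifs were searched on both strands in windows of 300 bases, from 250 before to 50 after the start, and a window was given for 7 of the 10 genes, all but *Egr1*, *Fosl1* and *Ier2*. The cyclic AMP response element (CRE) half-site TGACG was in 4 of these 7 windows and in 20.8% of 32851 mouse promoter windows. *Fos* held it from 129 to 125 and from 66 to 62 bases before the start, *Junb* from 106 to 102, *Fosb* from 60 to 56, and *Atf3*, on the other strand, from 7 to 3 bases before the start. The Jun-type AP-1 site TGACATCA lay 45 to 38 bases before the start of *Jun* and was in 3.62% of all windows. A TATA box TATAAA was found in *Fos*, from 33 to 28 bases before the start, and in *Junb*, against 13.6% of all windows. In *Junb* it began at the RefSeq start base itself (84978748), upstream of the 5′ end of the GENCODE locus (84978718). The EGR motif GCGNGGGCG was in *Fosl2* and *Fosb* and in 5.55% of windows, and the kB motif of NF-kB was in *Fosl2*, *Fosb* and *Fos* and in 8.46%. The plain AP-1 site TGACTCA, the full CRE TGACGTCA, the CArG box of SRF and the E-box CACGTG, to which BMAL1 dimers are known to bind, were not in the letters of these 7 windows, and they were in 5.20%, 1.79%, 1.63% and 7.15% of all windows. The half-site is contained in the full CRE, so those motifs overlap.

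Whole reads on the listed genes ranged from 10312791 to 14156639 per library, and mice of a group differed by more than sampling noise, with a chi-square per gene of 46.2 within control and of 11.1 within *Bmal1* cKO. The targeted gene *Arntl* had 358 and 342 normalized counts in control and 341 and 289 in *Bmal1* cKO (log2 fold change -0.16 ± 0.14, the error being the standard error here and for all fold changes, limma adjusted p = 0.389). The level of the targeted gene therefore did not separate the labels by the test, and the counts cover the whole gene, so they do not show the floxed part on its own. All directions therefore compare libraries by their labels, those labelled *Bmal1* cKO relative to those labelled control. Across the 13983 tested genes, 3871 (27.7%) were lower and 4059 (29.0%) were higher in *Bmal1* cKO by limma at an adjusted p under 0.05, so 56.7% were called in 1 direction or the other. The median log2 fold change of all tested genes was -0.037. Scaling by library totals in place of the deposited size factors moved it to -0.26 and turned the split into 4885 lower and 3091 higher, so each fold change is to be read against that shift. The p-values measure the spread between 2 mice per group, and an exact permutation test of 2 against 2 cannot go below p = 0.333.

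Among the 10 factors, 7 were past the threshold in the lower direction beside the 27.7% of all tested genes, and *Fos*, *Fosl2* and *Atf3* were not past it. The members were selected on the differences between these same libraries, so nothing is read from this count. Both *Bmal1* cKO libraries lay below both control libraries for the same 7 genes, beside 41.7% of all tested genes, and above them for *Fosl2*, beside 40.3%. The median log2 fold change of the 10 was -2.0, with a range from -4.18 to 0.27.

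**Figure D1:**
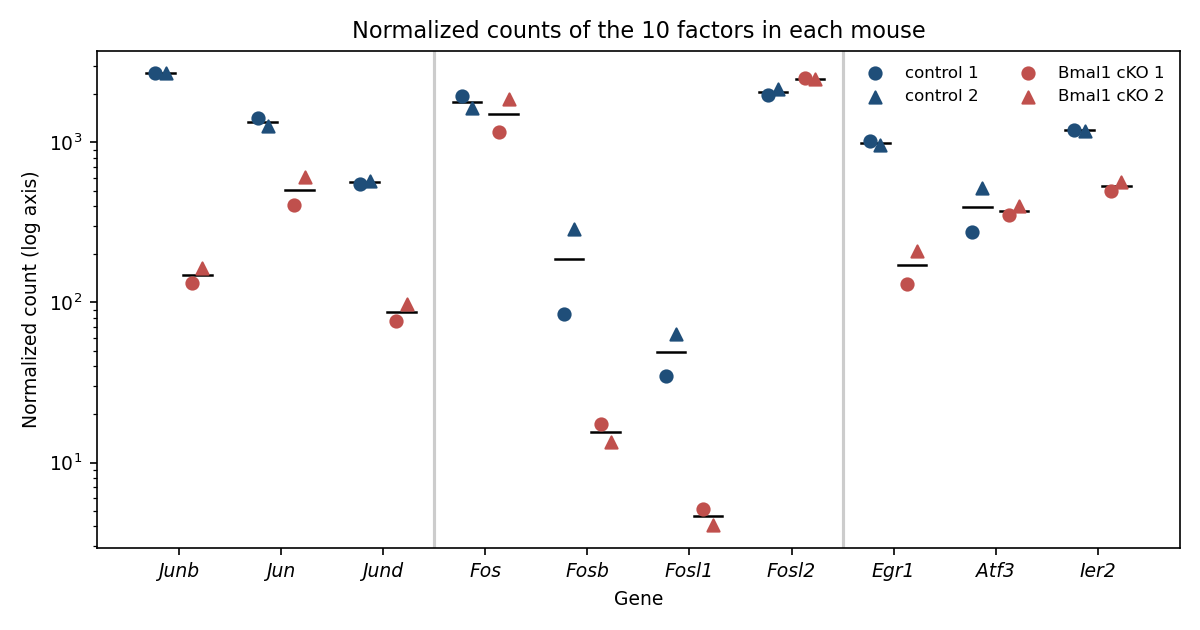
Normalized count (log axis) of each of the 10 factors in the 4 mice, with circles for mouse 1 and triangles for mouse 2 of each group and a bar at the group mean. *Junb* sits at 2699 and 2703 in the control mice and at 133 and 165 in the *Bmal1* cKO mice, whereas the points of *Fos* and of *Atf3* overlap between the groups.

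A Jun protein is part of most AP-1 dimers. *Junb* (chr8:84974484-84978718, ENSMUSG00000052837), which encodes a Jun protein that is a weaker activator than c-JUN on many targets and can restrain it, had 2699 and 2703 normalized counts in control and 133 and 165 in *Bmal1* cKO. The control mice were almost level, both *Bmal1* cKO mice were far below them, and the groups did not overlap. The means were 2701 ± 2.61 and 149 ± 22.8 (SD, n = 2 each), so the level in *Bmal1* cKO was 5.51% of that in control. The log2 fold change was -4.18 ± 0.14, and 284 of the tested genes (2.03%) had a lower one.

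*Jun* (chr4:95049034-95052222, ENSMUSG00000052684, 1 exon), the founding member and the main target of the JNK kinases, had 1431 and 1271 normalized counts in control against 408 and 606 in *Bmal1* cKO. Its groups were apart as well, with the *Bmal1* cKO mice less alike than the control mice. The log2 fold change was -1.44 ± 0.20, and the mean was 37.5% of control. *Jund* (chr8:70698949-70700616, ENSMUSG00000071076, 1 exon), the Jun gene that is usually expressed steadily and is least responsive to stimulation, had 551 and 575 against 76.1 and 97.3, with no overlap. Its log2 fold change was -2.69 ± 0.18 and its mean 15.4% of control.

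Levels can be compared between genes per kilobase of exon. The Jun genes together had 1952 and 1918 normalized counts per kb in control and 231 and 320 in *Bmal1* cKO. The make-up of this total differed too: *Junb* held 60.1% and 61.2% of it in control and 24.9% and 22.4% in *Bmal1* cKO. The share of *Jun* was 23.0% and 20.8% in control and 55.3% and 59.4% in *Bmal1* cKO, and that of *Jund* stayed between 16.9% and 19.7% in all 4 mice. *Junb* was thus the most abundant Jun mRNA per length in both control mice and *Jun* in both *Bmal1* cKO mice. These shares do not depend on how a library is scaled, but they are not corrected for GC content, and under a correction for it the fold changes of the Jun genes relative to each other differ (-2.35 for *Junb*, -0.68 for *Jun* and -0.03 for *Jund*).

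**Figure D2:**
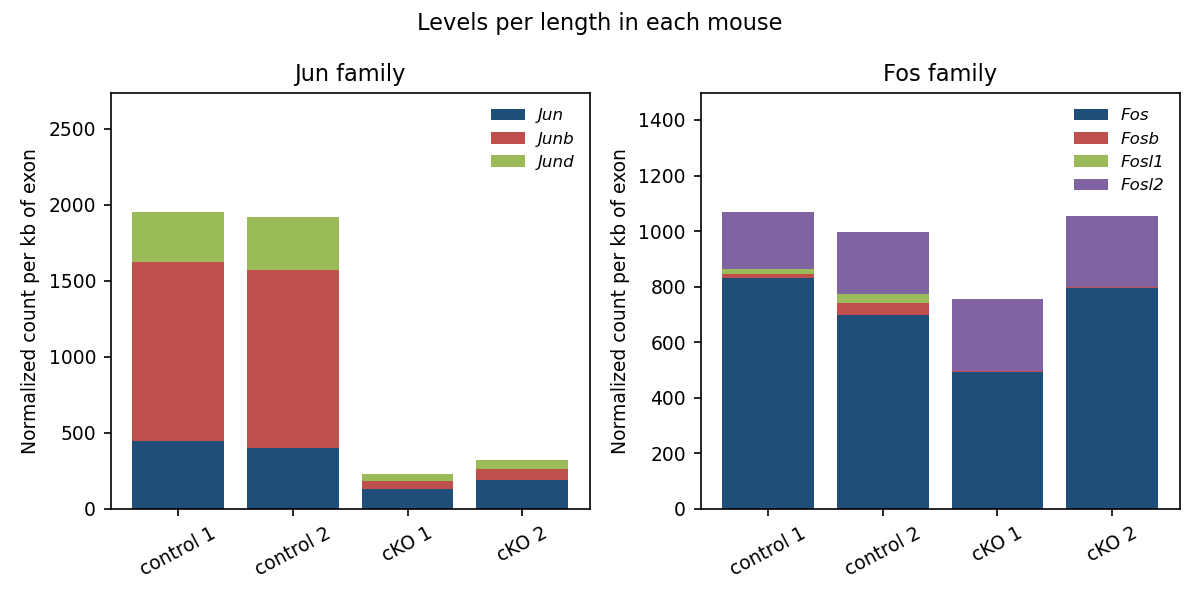
Normalized counts per kb of exon in each mouse, stacked by gene, for the Jun family (left) and the Fos family (right). The Jun total is 1952 and 1918 in control and 231 and 320 in *Bmal1* cKO, with *Junb* making up most of it in control, while the Fos totals of the groups overlap.

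The Fos proteins stabilise AP-1 as partners of Jun, and FRA-1 and FRA-2, the products of *Fosl1* and *Fosl2*, lack the strong activation domain of c-FOS and FOSB. *Fos* (chr12:85473890-85477273, ENSMUSG00000021250) had 1956 and 1638 normalized counts in control and 1157 and 1871 in *Bmal1* cKO. The groups overlapped, because the second *Bmal1* cKO mouse lay between the control mice. The log2 fold change was -0.28 ± 0.24, and without the first *Bmal1* cKO mouse it was 0.064.

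*Fosb* (chr7:19302696-19310051, ENSMUSG00000003545), which also yields a truncated isoform by splicing, had 85.3 and 290 normalized counts in control and 17.5 and 13.5 in *Bmal1* cKO. Both *Bmal1* cKO mice were below both control mice, but the control mice were far apart from each other. Its log2 fold change was -3.27 ± 0.62, and the call was lost when either *Bmal1* cKO mouse was left out (-3.45 without the first and -3.10 without the second). It was -4.15 without the first control mouse and -2.40 without the second, and called in both. *Fosl1* (chr19:5447547-5455946, ENSMUSG00000024912), itself a classical AP-1 target, was the scarcest of the 10 with 34.6 and 63.5 normalized counts against 5.14 and 4.06. These values rested on 41 and 75 reads in the control mice and on 5 and 3 in the *Bmal1* cKO mice, and the log2 fold change of -3.11 ± 0.59 was no longer called without the second *Bmal1* cKO mouse (-2.96).

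*Fosl2* (chr5:32135801-32157842, ENSMUSG00000029135) went the other way. It had 1991 and 2164 normalized counts in control and 2512 and 2479 in *Bmal1* cKO, so both *Bmal1* cKO libraries were above both control libraries. The difference on the log2 scale was 0.27 ± 0.09 on the deposited scaling, which did not pass the threshold, and 0.04 when the libraries were scaled by their totals.

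Per kilobase the Fos family summed to 1068 and 998 in control and 757 and 1056 in *Bmal1* cKO, and these totals overlapped. *Fos* was the largest part in every library, with 77.9% and 69.8% in control and 65.0% and 75.3% in *Bmal1* cKO. The share of *Fosl2* was 19.3% and 22.4% in control and 34.3% and 24.3% in *Bmal1* cKO. *Fosb* and *Fosl1* together were a minor part throughout, each between 0.189% and 4.65% of the family.

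Of the genes outside the Jun and Fos families, *Egr1* (ENSMUSG00000038418) encodes a zinc finger factor that SRF and ELK factors switch on after ERK signalling. It had 1021 and 958 normalized counts in control and 131 and 211 in *Bmal1* cKO. The groups were well apart, with a log2 fold change of -2.57 ± 0.24 and a mean of 17.3% of control. *Ier2* (chr8:84661331-84662852, ENSMUSG00000053560, 1 exon), which encodes a small nuclear protein without a bZIP domain, had 1198 and 1184 in control and 498 and 566 in *Bmal1* cKO. Its groups did not overlap either, and the log2 fold change was -1.16 ± 0.11.

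*Atf3* (chr1:191170296-191218039, ENSMUSG00000026628) encodes a bZIP factor of the integrated stress response that pairs with Jun proteins. It had 276 and 518 normalized counts in control and 350 and 400 in *Bmal1* cKO. Both *Bmal1* cKO mice fell inside the range of the control mice. The log2 fold change was -0.02 ± 0.30, and it became 0.44 without the second control mouse and 0.080 without the first *Bmal1* cKO mouse.

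The order of the 10 genes per kb of exon was not the same in the groups. In control the order by mean was *Junb* (1174 normalized counts per kb), *Ier2* (783), *Fos* (764), *Jun* (424), *Jund* (338), *Egr1* (221), *Fosl2* (215), *Atf3* (184), *Fosb* (30.0) and *Fosl1* (24.1). The ranges of the mice overlapped between *Ier2* and *Fos*, between *Egr1*, *Fosl2* and *Atf3* as neighbours, and between *Fosb* and *Fosl1*, so those neighbours did not differ beyond their spread. In *Bmal1* cKO the order was *Fos* (644), *Ier2* (350), *Fosl2* (258), *Atf3* (174), *Jun* (159), *Junb* (64.7), *Jund* (52.0), *Egr1* (38.1), *Fosb* (2.48) and *Fosl1* (2.26). There the overlapping neighbours were *Atf3* and *Jun*, *Junb* and *Jund*, *Jund* and *Egr1*, and *Fosb* and *Fosl1*. *Fosl2* stood above every Jun gene in *Bmal1* cKO and below every Jun gene in control, and *Junb*, at the top in control, stood below *Fos*, *Ier2*, *Fosl2*, *Atf3* and *Jun* in *Bmal1* cKO. These orders hold for levels that are not corrected for GC content. Under that correction the log2 fold changes were 0.68 for *Fosl2*, 0.42 for *Ier2*, -0.01 for *Fos*, -0.03 for *Jund*, -0.68 for *Jun* and -2.35 for *Junb*.

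For 5 of the 10 genes part of the locus is shared with another annotated gene on the opposite strand, and whether the authors counted by strand is not given in the sources used here. *Fosl1* shares 2767 bases with *Ccdc85b*, *Jund* 919 with the antisense gene *Gm11175*, *Jun* 689 with *Junos*, *Junb* 351 with *Prdx2* and *Atf3* 108 with *Gm24748*. The values of these members are uncertain to the extent that reads of the overlapping gene were counted with them.

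The base composition of the genes moved with the result. The exons of the 7 lower members were 55.5% to 67.1% G and C, and those of *Fos*, *Fosl2* and *Atf3* were 52.0%, 52.1% and 52.2%. The correlation between log2 fold change and GC content was -0.70 over the 10 members (Spearman's rho, a description across genes of the same 4 libraries) and -0.62 over 13975 tested genes. When all genes were cut into 10 classes of GC content, the median log2 fold change ran from 1.13 in the lowest class to -1.39 in the highest, where 74.6% of the genes were called lower. *Fos*, *Fosl2* and *Atf3* belonged to a class with a median of -0.30, *Jun* and *Fosb* to one with -0.84, and the other 5 to the highest class. Within groups the trend was weak, with a rho of -0.01 for the difference of the control mice from each other and 0.12 for that of the *Bmal1* cKO mice. Whether the trend arose in the libraries or in the cells was not tested.

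**Figure D3:**
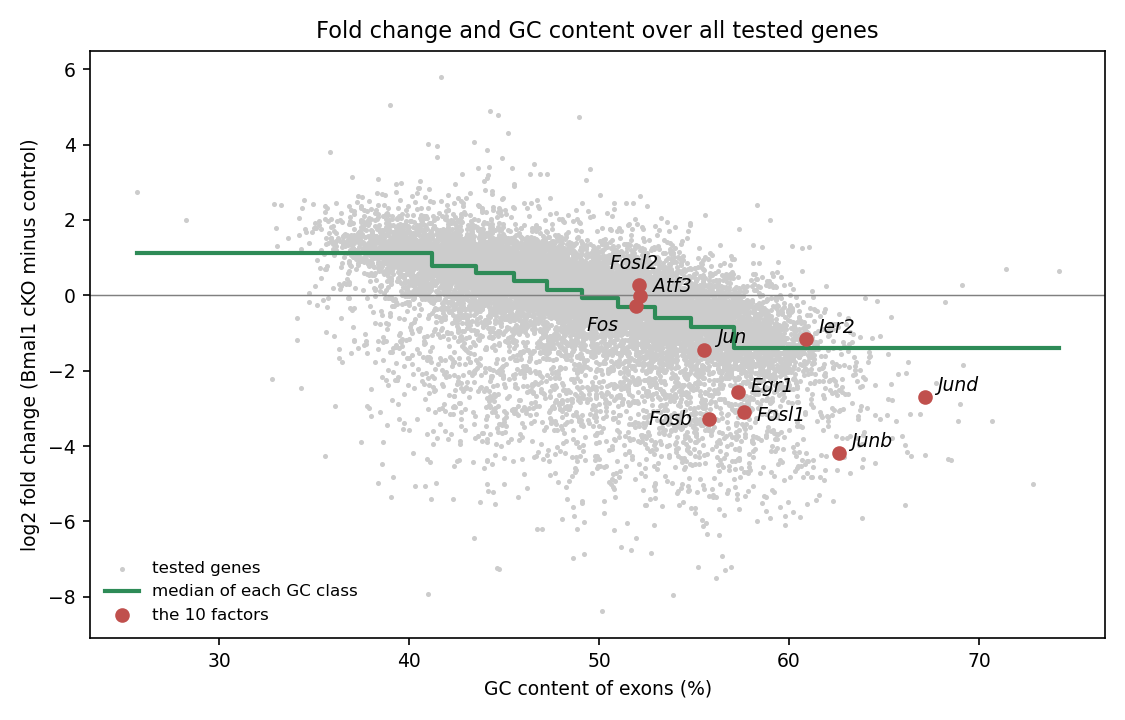
Log2 fold change (*Bmal1* cKO minus control) against the GC content of the exons for all tested genes (grey), the median of each of 10 GC classes (green steps) and the 10 factors (red). The steps run from 1.13 to -1.39, *Ier2* lies close to the step of its class, and *Junb*, *Fosb*, *Fosl1*, *Egr1* and *Jund* lie below theirs.

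Each library was then corrected for GC content and exon length by a smooth curve (loess) through all genes, which left a rho of -0.01 between corrected log2 fold change and GC content. After the correction 4 members were past the threshold in the lower direction and 2 in the higher, beside 17.0% and 17.8% of all genes. *Junb* was at -2.35 ± 0.17, *Fosb* at -2.44 ± 0.62, *Fosl1* at -2.05 ± 0.59 and *Egr1* at -1.56 ± 0.27, all past the threshold. *Jun* was at -0.68 ± 0.22 and not called, although its groups did not overlap. *Jund*, with the highest GC content of the 10, was at -0.03 ± 0.22 with overlapping groups, so its difference disappeared under this correction. *Ier2* changed sign to 0.42 ± 0.12 and *Fosl2* was at 0.68 ± 0.08, both called higher. *Fos* (-0.01 ± 0.24) and *Atf3* (0.28 ± 0.30) overlapped before and after the correction. The median of the 10 went from -2.0 to -0.36. A correction of this kind also removes any difference of the cells that follows GC content, so the uncorrected and corrected values are given side by side.

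**Figure D4:**
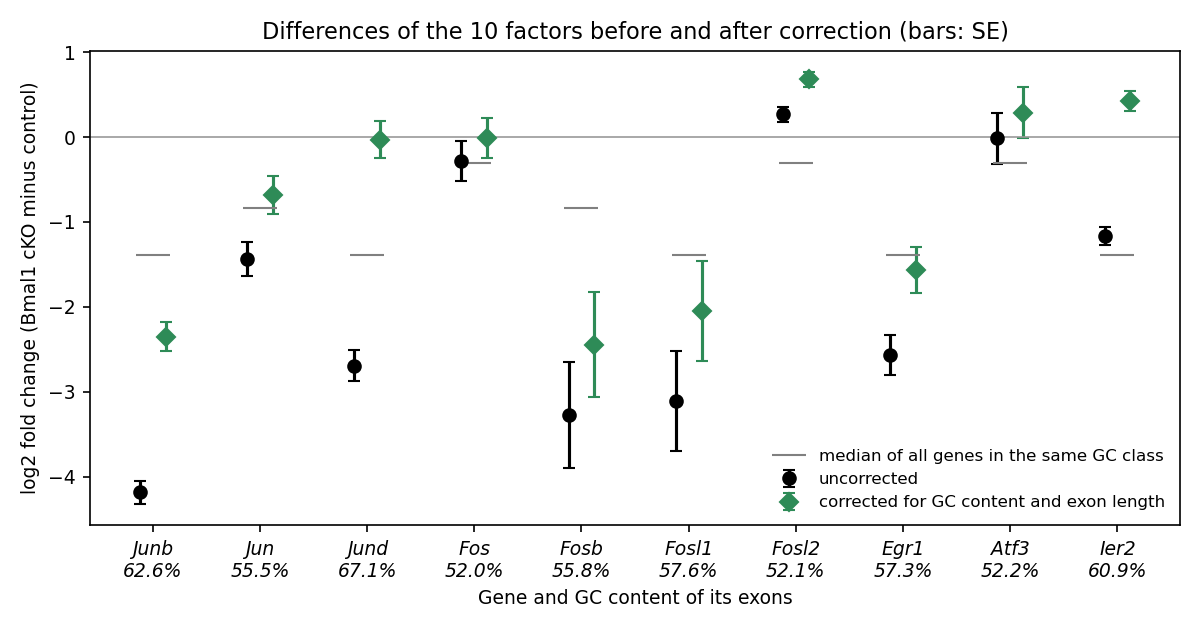
Log2 fold change (*Bmal1* cKO minus control) of the 10 factors before (circles) and after (diamonds) correction for GC content and exon length, with bars of 1 standard error, and the median of all genes of the same GC class (grey dashes). *Junb* goes from -4.18 to -2.35, *Jund* from -2.69 to -0.03 and *Ier2* from -1.16 to 0.42.

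The other genes of the pathway were taken from 8 lists, with 150 tested genes in all, 72 lower and 34 higher, beside 27.7% and 29.0% of all tested genes. After the correction 57 were lower and 21 higher, beside 17.0% and 17.8%. These lists too were written with earlier results known. Among 19 tested bZIP factors beyond the 10, 11 were lower and 3 higher (27.7% and 29.0% over all genes), with a median of -0.86. *Batf*, an AP-1 partner of Jun in lymphocytes, had 32.9 and 48.3 normalized counts in control and no read in either *Bmal1* cKO mouse. With a floor of 3 reads per library it was at least 11.4-fold lower from the control mean, or at least 9.23-fold from the first control mouse alone. *Jdp2*, a repressor that pairs with Jun, had 102 and 229 against 6.17 and 4.06 (log2 fold change -4.68 ± 0.54, and -3.42 corrected). *Creb1*, which binds the CRE, was higher with 895 and 673 against 2330 and 2484 (1.63 ± 0.15), and remained higher after the GC correction (0.56). *Atf2*, a partner of c-JUN, was higher at 1.01 ± 0.10 but had a GC content of 37.0% and was lower after correction (-0.36). *Atf4*, which drives the integrated stress response, fell from 2344 and 2176 to 542 and 530 (-2.07 ± 0.09, and -1.20 corrected), and *Nfe2l2*, the oxidative stress factor NRF2, was at 0.09 ± 0.11, not called, and at -0.49 corrected, called lower. After the correction 9 of the 19 were lower and 2 higher, beside 17.0% and 17.8%.

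Among 34 other immediate early genes, 20 were lower and 2 higher (27.7% and 29.0% over all genes), with a median of -1.56, and 18 and 3 after the correction (17.0% and 17.8%). Without the second control mouse 13 were lower, and without any 1 of the other mice 1 was higher. *Ier5l* had 97.2 and 35.6 normalized counts in control and no read in the *Bmal1* cKO mice, at least 18.6-fold lower with the same floor, or at least 9.96-fold from the second control mouse alone. *Klf2*, a zinc finger factor of endothelial cells and lymphocytes, had 282 and 217 against 5.14 and 5.41 (-5.31 ± 0.36, and -3.62 corrected). *Socs3*, the feedback inhibitor of STAT3 signalling, had 2039 and 1501 against 219 and 283 (-2.81 ± 0.20, and -1.56 corrected). *Klf4*, a factor of differentiating colonocytes and goblet cells, was lower (-0.98 ± 0.23) but not past the threshold after correction (-0.32). The 2 higher genes were *Mcl1*, an anti-apoptotic BCL2 relative, with 4727 and 5707 against 8379 and 9390 (0.77 ± 0.13, and 0.63 corrected), and *Klf6*, with 3310 and 3533 against 5125 and 4569 (0.50 ± 0.10, and -0.31 corrected, not called). *Btg2* (-0.0043 ± 0.17, and -0.028 corrected) and *Sgk1* (-0.18 ± 0.27, and -0.22 corrected) were called in neither, and *Btg1* was at -0.07 ± 0.10, not called, and at -0.69 corrected, called lower.

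Upstream, of 29 tested genes of the MAP kinase cascade 9 were lower and 13 higher, beside 27.7% and 29.0% of all tested genes, with a median of 0.37, and 4 and 9 after the correction, beside 17.0% and 17.8%. Without the first control mouse 5 were lower. *Mapk3*, an ERK kinase, had 3600 and 4208 normalized counts in control and 1006 and 1106 in *Bmal1* cKO (-1.88 ± 0.12, and -0.82 corrected). The ERK activator *Map2k1* (MEK1) rose from 1751 and 2195 to 3978 and 4306 (1.08 ± 0.13, and 1.24 corrected). Its paralogue *Map2k2* was at -0.73 ± 0.10 and at 0.22 after correction, not called there. *Rps6ka3* (RSK2), an ERK effector that phosphorylates CREB and c-FOS, was higher (1.60 ± 0.10, and 0.65 corrected). *Mapkapk2* (MK2), the p38 effector that stabilises AU-rich mRNAs, was lower (-1.73 ± 0.24, and -0.81 corrected).

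On the SRF and CREB side 8 of 16 genes were lower and 3 higher (27.7% and 29.0% over all genes), with a median of -1.14, and 6 and 1 after the correction (17.0% and 17.8%). Without the first control mouse 5 were lower. *Srf* itself had 575 and 712 normalized counts against 248 and 168 (-1.65 ± 0.23), and at a GC content of 63.4% its corrected value was 0.31 and not called. *Mrtfa*, the actin-regulated coactivator of SRF, was at -1.55 ± 0.17 and at -0.54 corrected, not called. *Mef2d* was lower by both (-1.10 ± 0.10 and -0.39), and *Elk4*, a ternary complex partner of SRF, was higher by both (0.60 ± 0.10 and 0.39). *Mef2a*, a paralogue of *Mef2d*, was higher at 0.65 ± 0.10 and lower at -0.51 after the correction, called in both. *Ep300*, a coactivator acetylase, was higher at 0.39 ± 0.10 and at 0.27 corrected, not called, and *Ets2* was at -0.33 ± 0.15 and at -0.012 corrected, called in neither.

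The feedback inhibitors, which MAP kinase signalling itself induces, had 11 of 17 lower and 2 higher (27.7% and 29.0% over all genes), with a median of -1.23. Without the first control mouse or either *Bmal1* cKO mouse 1 was higher. *Dusp1*, the phosphatase of p38 and JNK, had 1070 and 2314 normalized counts in control and 186 and 119 in *Bmal1* cKO (-3.39 ± 0.40, and -2.89 corrected). *Dusp2*, a nuclear phosphatase of haematopoietic cells, had 183 and 136 against 6.17 and 1.35, the last a single read (-5.28 ± 0.66, and -4.28 corrected). *Errfi1*, an inhibitor of the EGF receptor, was lower by both (-0.76 ± 0.14 and -0.97). *Dusp6*, the cytoplasmic ERK phosphatase, was higher with 1637 and 2037 against 2613 and 2310 (0.43 ± 0.14, and 0.31 corrected, not called), and *Spred1*, an inhibitor of Ras, was higher at 1.31 ± 0.15 and at 0.28 corrected, not called. After the correction 7 of the 17 were lower, beside 17.0%, and neither *Dusp6* nor *Spred1* was called. Before it, leaving out any 1 of the 4 mice left 4 to 6 lower.

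Of the 8 factors that set the decay of AU-rich mRNAs, 2 were lower and 4 higher (27.7% and 29.0% over all genes), with a median of 0.16, and 2 and 2 after the correction (17.0% and 17.8%), with a median of -0.22. Before the correction the 4 became 2 when either control mouse or the first *Bmal1* cKO mouse was left out. *Zfp36* (tristetraprolin), which destroys such mRNAs and is itself an immediate early gene, had 1536 and 2003 normalized counts against 268 and 369 (-2.47 ± 0.20, and -1.78 corrected). *Khsrp*, a decay factor that binds the same elements, was lower at -1.19 ± 0.11 and not called at -0.22 after the correction. *Tia1*, a translational silencer, rose from 759 and 615 to 2619 and 2763 (1.98 ± 0.13, and 0.98 corrected). *Zfp36l2*, a relative of *Zfp36*, was at -0.16 ± 0.09, not called, and at 0.49 corrected, called higher. *Hnrnpd* (AUF1), another binder of AU-rich elements, was higher at 0.38 ± 0.11 and lower at -0.58 after the correction, called in both. *Elavl1* (HuR), which stabilises these mRNAs, was at 0.44 ± 0.10 and at -0.21 corrected, not called.

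Downstream, 8 of 14 classical AP-1 target genes were lower, beside 27.7% of all tested genes, and the other 6 had negative fold changes without passing the threshold, with a median of -2.50, and 8 were lower after the correction, beside 17.0%, with a median of -2.85. *Timp1*, an inhibitor of metalloproteinases, had 293 and 139 against 7.20 and 4.06 (-4.98 ± 0.53, and -4.53 corrected). *Ccnd1* (cyclin D1), with 2452 and 2098 against 1307 and 1579, was lower by much less (-0.66 ± 0.14) and was not past the threshold after the correction (-0.41). *Cd44* was at -0.34 ± 0.17 uncorrected, not called, and at -0.89 corrected, called. *Timp1* is known to be made in quantity by stromal cells too.

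Heat shock genes were listed because tissue handling induces them together with AP-1. Of 14 genes 4 were lower and 7 higher (27.7% and 29.0% over all genes), with a median of 0.33, and 4 and 4 after the correction (17.0% and 17.8%). Leaving out any 1 of the 4 mice left 3 or 4 higher. *Hspa1b*, the inducible HSP70, had 166 and 150 normalized counts against 336 and 468 (1.33 ± 0.20, and 2.44 corrected), and *Hsp90aa1*, the inducible HSP90, had 6029 and 5884 against 11011 and 14036 (1.06 ± 0.14, and 0.55 corrected). *Hspb1* (HSP25) had 77.7 and 332 against 4.11 and 5.41 (-4.82 ± 0.75, and -3.18 corrected). *Hsp90aa1* and *Hspa1b* were thus higher in the same *Bmal1* cKO libraries in which 7 of the 10 factors were lower, and the part of tissue handling in either was not tested.

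**Figure D5:**
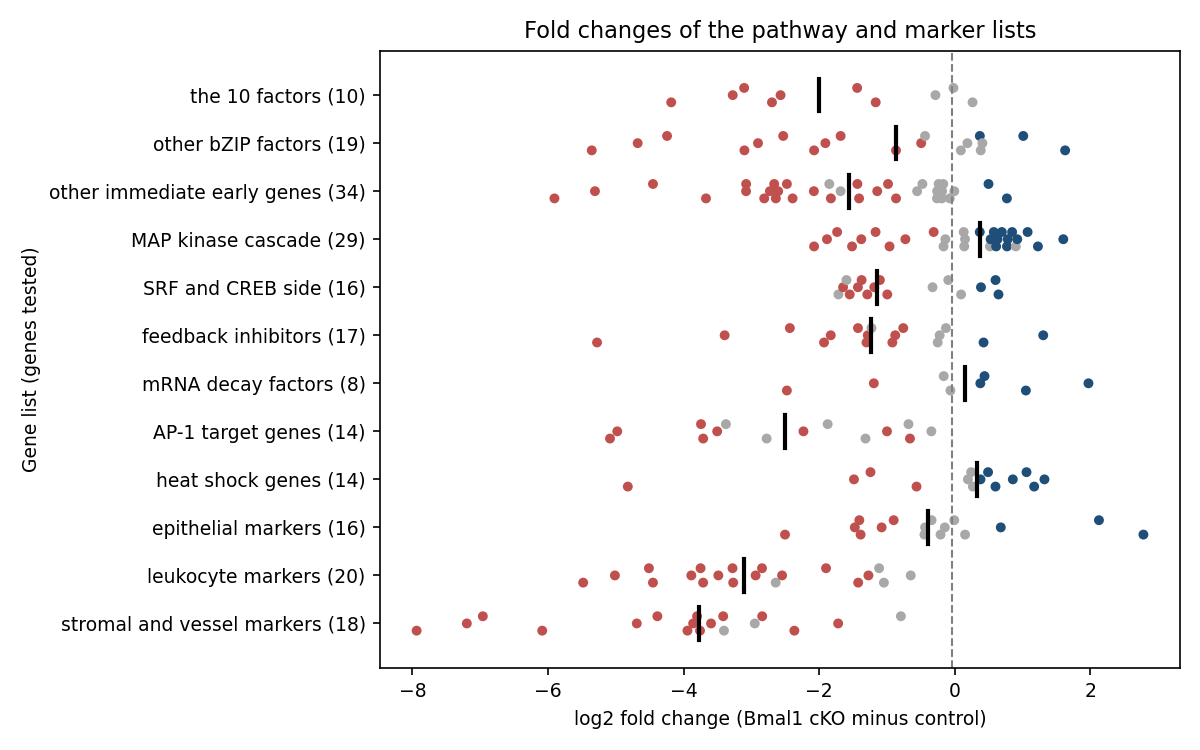
Log2 fold change (*Bmal1* cKO minus control) of every tested gene of the 10 factors, the 8 pathway lists and the 3 marker lists, with the number tested in brackets. Red points were lower and blue points higher by limma at an adjusted p under 0.05, grey points were not called, black bars are list medians (-2.0 for the 10 factors, 0.37 for the MAP kinase cascade, -3.78 for stromal and vessel markers), and the dashed line is the median of all tested genes (-0.04).

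Most markers of leukocytes and of stroma and vessels were lower in *Bmal1* cKO. The 22 leukocyte markers summed to 21309 and 33687 normalized counts in control and to 5784 and 5413 in the *Bmal1* cKO mice, and 16 of the 20 tested were lower, beside 27.7% of all tested genes, with a median of -3.10. The 18 stromal and vessel markers summed to 18645 and 5228 in control and to 630 and 742 in *Bmal1* cKO, and 15 were lower, beside the same 27.7%, with a median of -3.78. *Ptprc* (CD45), the marker of all leukocytes, had 1259 and 745 against 315 and 414, and *Adgre1*, a macrophage marker, had 139 and 53.4 against 4.11 and 10.8. *S100a8* of neutrophils had 1424 and 8066 against 362 and 174, *Col1a1* of fibroblasts 1719 and 408 against 35.0 and 28.4, and *Acta2* of smooth muscle 957 and 610 against 1.03 and 17.6. After the GC correction 14 leukocyte and 14 stromal markers were lower, beside 17.0% of all genes. Uncorrected, the lower calls were 7 and 8 without the first *Bmal1* cKO mouse and 9 and 8 without the second. The 16 epithelial markers summed to 240613 and 326083 in control and to 191094 and 215131 in *Bmal1* cKO, with 6 lower, 3 higher (27.7% and 29.0% over all genes) and a median of -0.39, and 2 lower, 7 higher (17.0% and 17.8%) and a median of 0.10 after the correction. The 3 higher calls before the correction were lost when either *Bmal1* cKO mouse was left out. *Epcam*, which defines epithelial cells, was level at 17455 and 21771 against 18588 and 20320, so RNA of the labelled cell type was present in all 4 libraries. *Cdh1* had 15052 and 18761 against 12118 and 12745 (-0.44 ± 0.15, and -0.27 corrected). *Vil1* had 6324 and 8459 against 5310 and 5441 (-0.44 ± 0.16, and -0.02 corrected). Neither *Cdh1* nor *Vil1* was called before or after the correction. In bulk RNA, fewer cells of a type and less RNA per cell cannot be told apart, and the part of leukocytes and stroma in the values of the 10 factors was not tested.

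The control mice differed from each other in these markers. The sum of the leukocyte markers was higher in the second control mouse, as was *S100a8*, whereas *Ptprc* and *Adgre1* were higher in the first. The sum of the stromal and vessel markers was higher in the first, as were *Col1a1* and *Acta2*. Among the members, *Fosb*, *Fosl1* and *Atf3* were higher in the second control mouse and *Fos* and *Jun* in the first, while *Junb*, *Jund*, *Egr1* and *Ier2* were nearly level. These are 2 libraries, and no relation between members and markers was tested.

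The genes whose pattern over the 4 libraries was closest to 3 of the members were sought among the 9974 genes that reached a mean normalized count of 100, by the Euclidean distance between centred log2 values. For *Junb* they were *Spi1* (the transcription factor PU.1, distance 0.198), *Fcgr3* (an Fc gamma receptor, 0.236) and *Tmsb10* (thymosin beta 10, 0.239). *Spi1* had 265 and 226 normalized counts in control and 12.3 and 14.9 in *Bmal1* cKO, close to the ratio of *Junb* itself. For *Fos* they were *Mrps36* (0.0816), *Prickle3* (0.135) and *Mta3* (0.140), and for *Atf3* they were *Pstpip2* (0.0912), *Tiparp* (0.139) and *Adtrp* (0.179). With 4 libraries in 2 groups, any gene with a like ratio between the groups and like mice within them comes out close.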

How the data were processed

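RNA from colonic epithelial cells of 2 control and 2 *Bmal1* cKO mice was sequenced. Reads were aligned by the authors with STAR to GRCm38. The deposited value per library is a normalized count, a signal made by dividing gene counts by a DESeq2 size factor, and 100% of the values were whole multiples of 1 read (tolerance 0.001), which gave back the reads. The authors also deposited 6 columns of their own comparison, among them a log2 fold change, a score and a p-value, which were not used. The counter, annotation and strand setting are not given in the sources used here, and the library kit differs between labels and methods.

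The members and lists were chosen with earlier results of these data known. Genes whose mean reached 10 were compared on log2(normalized count + 1), which understates changes of low genes, by limma 3.58.1 (R 4.3.3) with a variance trend, two-sided, adjusted by Benjamini-Hochberg over all 13983 genes at a threshold of 0.05. DESeq2, the tool of the study, needs counts, so DESeq2 1.42.0 and edgeR 4.0.16 were run on the recovered reads as alternatives. The others were pseudocounts of 0.5 and 5, no filter or a mean of 50, library total scaling, a block for the mouse number, a robust loess (span 0.3) on GC content and exon length, and leaving out each mouse. The fits were run on simulated data with far fewer changed genes than were called here, as a check of the code only. Bounds from 3 reads cover counting error only. Positions and exons came from GENCODE M21 (GRCm38), which matched 16008 of 16015 genes. All members were named, and from each list the 2 lowest and 2 highest called genes and any with a mean of at least 1000 could be. Some of these are not reported here.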

Additional observations from a re-analysis of the deposited data

How the results depend on the processing

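Over pseudocounts, filters, library total scaling, edgeR, DESeq2 and the replicate block, the 7 members lower in *Bmal1* cKO stayed called, except that a mean filter of 50 leaves *Fosl1* untested, with log2 fold changes of -4.41 to -4.15 for *Junb*, -2.92 to -2.64 for *Jund* and -1.39 to -1.16 for *Ier2*. Over all tested genes edgeR called 3812 lower and 3861 higher, and DESeq2 3803 and 3719. The mouse numbers are not stated to pair the mice, and the deviations of equal numbers had a correlation of -0.09, so they share only a number, and a pairing over 2 pairs could not be established. The replicate block gave 3789 genes lower and 3899 higher and left the 7 members called. The correction for GC content and exon length gave 2373 genes lower and 2484 higher, members 4 lower and 2 higher, and pathway genes 21 higher, with *Ier2* reversed at 0.42 and *Atf3* at 0.28, and the cause was not tested. With the replicate block as well there were 1982 lower and 2130 higher, members 3 and 1, and pathway genes 16 higher, with *Ier2* at 0.42 and *Atf3* at 0.28, and the calls of *Ier2* and *Fosl1* were lost. A least squares loess in place of the robust one, chosen after seeing the data, shifted the median of all genes to 0.26 and gave 1561 lower and 4059 higher, members 3 lower and 2 higher, pathway genes 42 lower, *Jund* at 0.065, *Fos* at 0.29, *Atf3* at 0.59 and *Ier2* at 0.67.

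Leaving out 1 mouse at a time, where the lone mouse is assumed to vary like the other group, gave 2205 to 2852 genes lower and 2654 to 3154 higher over all tested genes, members 5 to 7 lower and 0 to 0 higher, and pathway genes 50 to 55 lower and 22 to 24 higher. Fold changes on the log2 scale ranged from -0.63 to 0.064 for *Fos*, reversed without the first *Bmal1* cKO mouse, and from -0.47 to 0.44 for *Atf3*, reversed without that mouse (0.080) or the second control mouse. Fits without a mouse have fewer samples, and 7 leukocyte markers were called lower without the first *Bmal1* cKO mouse and 9 without the second, and 8 stromal and vessel markers without one or the other. *Fosl1* and *Dusp2*, with few reads in *Bmal1* cKO, were limited by depth.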
